A study of Mus musculus with 24 samples.

Results

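The genes described here are targets of the transcription factor p53, with p53 itself, that lie outside the BCL2 family of cell death regulators. They were taken as a list of 37 gene symbols and matched to the symbols of 2 tables of heart RNA, 1 for each time of collection. The table of 16 h held 35 of them among 10393 genes and the table of 72 h held 21 among 7723 genes. All 21 were also in the table of 16 h, 14 were in that table alone, and Gtse1, a microtubule-binding regulator of p53, and Pidd1, an adaptor for caspase activation, were in neither. Neither table holds every annotated gene, and the rule that left the others out is not stated. The genes measured are therefore not all members, and a gene that is in 1 table alone says nothing about the other time.

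The tumour suppressor p53 is stabilised after DNA damage, when kinases that sense broken DNA release it from the ubiquitin ligase Mdm2. It then binds paired half-sites in DNA and activates genes that halt the cell cycle, open death receptor and apoptosome pathways, repair DNA and adjust metabolism. One of its targets is Mdm2 itself, which closes a negative feedback loop. Doxorubicin is an anthracycline that traps topoisomerase on DNA and so causes strand breaks, and p53 has long been studied in the injury that the drug does to the heart.

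In a study of protection against doxorubicin injury, hearts of wild-type (WT) mice were compared after a dose of doxorubicin at 25 mg/kg (DOX), hesperitin at 10 mg/kg per day (H), a citrus flavanone usually spelled hesperetin, both compounds (DOXH) or vehicle (V). At 16 h all 4 groups were analysed, and at 72 h DOX and V, with 3 libraries in each group and 18 in all. The labels give 1 batch to all and no strain, age or sex, and they do not say how many animals stand behind a sample, and so each p-value reflects differences between samples, which may be technical. At 72 h the number of the third DOX column is absent from the labels, and its value is given last. Poly(A) RNA was sequenced, and the values are expected counts per gene.

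Library totals were 16607805 to 20587578 counts at 72 h. At 16 h those of H (17664060 to 19869050) were deeper than those of DOXH, DOX and V (9255651 to 11074450). Levels are given as CPM, counts scaled to library size with TMM factors within a table, and levels of the 2 tables were not compared. Changes are log2 fold changes ± SE from edgeR's quasi-likelihood test, called where the Benjamini-Hochberg adjusted p was under 0.05. At 16 h the spread of a gene was estimated over all 12 libraries, H and DOXH among them. The SE and p of DOX against V at 16 h thus do not measure the spread of DOX and V alone. Whether the libraries of 2 groups overlapped describes the values of a gene and is not a call. The share of all genes without overlap is not given here. Over all genes at 16 h, H replicate 1 lay apart from the other H libraries. The chi-square per gene between their counts was 36.1 and 35.0 against H replicates 2 and 3, and 12.6 between replicates 2 and 3. In the members that rose in DOX, DOXH replicate 3 stood apart from the others of its group. Among the 21 members that rose in DOX at 16 h, DOXH replicates 1 and 2 were above the highest V library for all 21, while DOXH replicate 3 was above it for 7 and below the lowest V library for 6. The median log2 ratio of these 21 genes to the V mean was 1.05, 1.58 and 0.05 in DOXH replicates 1, 2 and 3. It lay between 1.43 and 1.62 in the DOX libraries and between -0.04 and 0.12 in those of H. The first principal component over all genes held 60.8% of the variance at 16 h. On it DOXH replicates 1, 2 and 3 stood at 8.28, 35.1 and -17.7. DOX libraries stood at 29.4 to 42.2, V at -20.7 to -18.0 and H at -27.3 to -16.4. Whether DOXH replicate 3 received doxorubicin as its label says cannot be told from these files, and what every value of DOXH means depends on it. Each comparison with DOXH is given with and without the library labelled DOXH replicate 3.

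**Figure D1:**
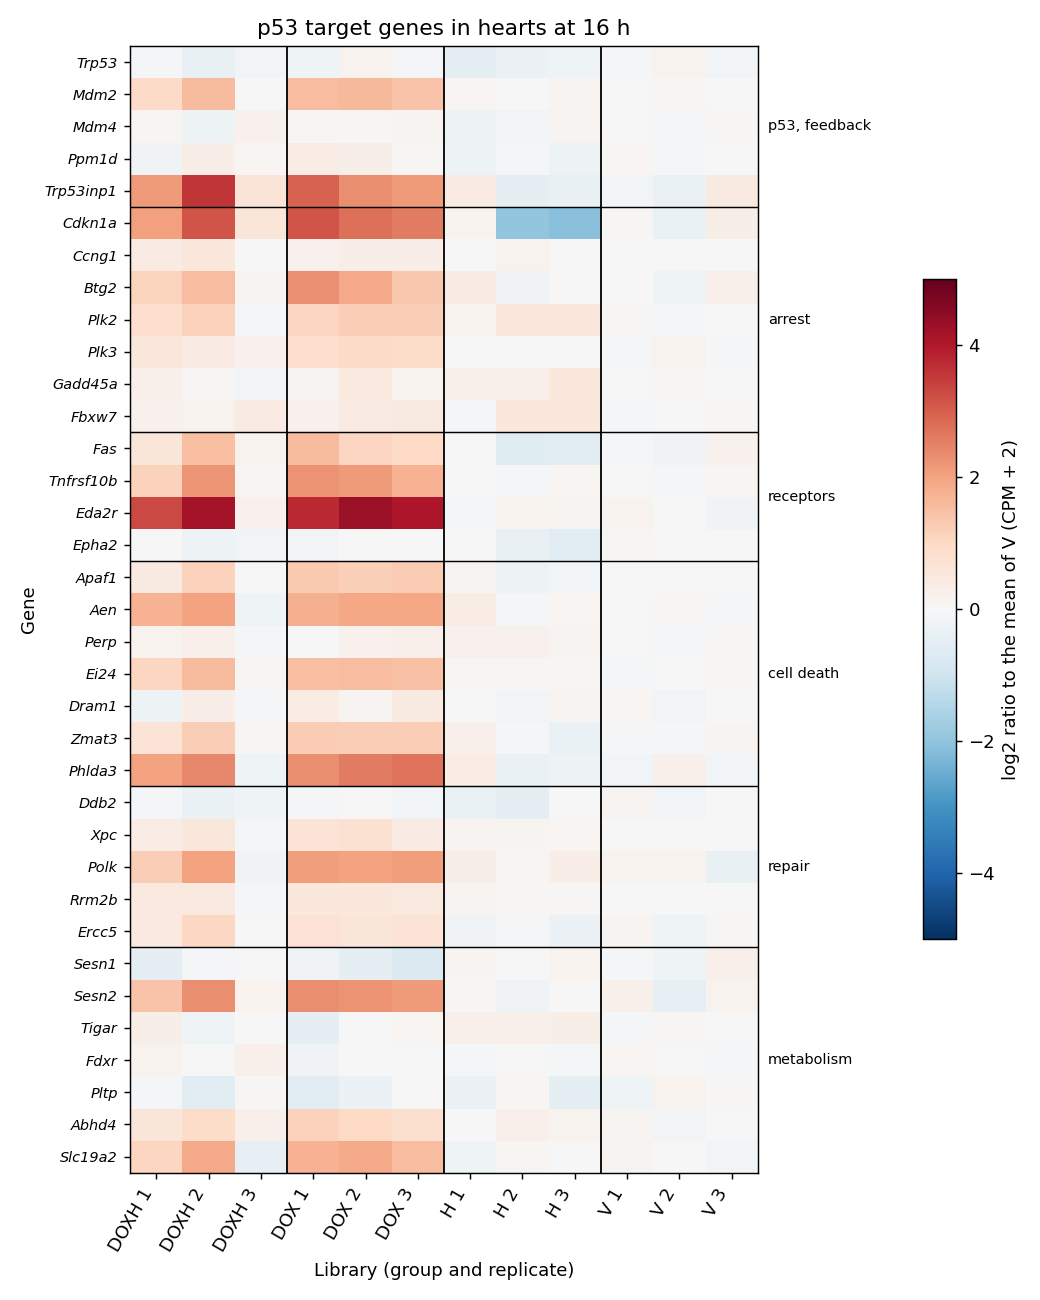
Log2 ratio of CPM + 2 to the mean of the 3 V libraries for the 35 members measured at 16 h (rows, by role) in 12 libraries (columns, by group), red for higher and blue for lower. The 3 DOX libraries and DOXH replicates 1 and 2 are red for the 21 members that rose, and DOXH replicate 3 is close to V for most of them.

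At 16 h, doxorubicin was set against vehicle. Of the 35 members measured, 21 rose and 0 fell, while 15.6% of all genes tested rose and 16.6% fell. The median log2 fold change was 1.03 over the 35 members and 0.02 over all genes. Members that rose came from every role: 2 of 5 in p53 feedback, 4 of 7 in cell cycle arrest, 3 of 4 receptors, 5 of 7 other cell death genes, 4 of 5 repair genes and 3 of 7 metabolic genes. The 21 rises ran from 0.52 ± 0.14 for Rrm2b to 4.75 ± 0.85 for Eda2r. In whole-heart RNA, fewer cells of a type and less RNA per cell cannot be told apart.

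Among p53 and its feedback regulators, Mdm2 and Trp53inp1 rose. Mdm2 read 135, 142 and 123 CPM in DOX hearts, against 44.0, 45.9 and 43.9 CPM in V hearts. This gene encodes the ubiquitin ligase that marks p53 for degradation (chr10:117688875-117710758, minus strand, GRCm38), and every DOX library lay above every V library, by 2.99-fold on average (1.58 ± 0.29, edgeR adjusted p = 0.00404). Trp53inp1 read 244, 155 and 137 CPM in DOX hearts, against 26.7, 23.3 and 41.7 CPM in V hearts. Its product is a stress-induced nuclear protein that promotes p53 activity, and the groups did not overlap (2.55 ± 0.63, edgeR adjusted p = 0.0135). Ppm1d read 11.9, 11.0 and 9.20 CPM in DOX hearts, against 9.64, 7.98 and 8.69 CPM in V hearts. This gene encodes the phosphatase Wip1, which damps p53 signalling, its groups overlapped, and it did not pass (0.29 ± 0.17, edgeR adjusted p = 0.195). The transcript of p53 itself, Trp53, stood at -0.05 ± 0.16 (edgeR adjusted p = 0.828), with overlapping groups. Mdm4 read 64.4, 67.2 and 69.3 CPM in DOX hearts, against 61.6, 59.3 and 65.4 CPM in V hearts. Mdm4, the gene of a p53 inhibitor related to Mdm2, overlapped too and stood at 0.11 ± 0.12 (edgeR adjusted p = 0.522).

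Of the genes of cell cycle arrest, 4 of 7 rose at 16 h. Cdkn1a read 323, 246 and 212 CPM in DOX hearts, against 36.5, 26.9 and 42.5 CPM in V hearts. Cdkn1a encodes p21, an inhibitor of cyclin-dependent kinases (chr17:29090976-29100727, plus strand), and its DOX libraries all lay above the V libraries, by 7.38-fold on average (2.88 ± 0.75, edgeR adjusted p = 0.0164). The call was lost without V replicate 1 or V replicate 2, at 2.72 to 2.91. Exons of Cdkn1a, Plk3, Gadd45a, Ei24, Ddb2, Rrm2b, Tigar and Pltp overlap a gene on the opposite strand in GENCODE, and since strand use in counting is not stated, reads of the overlap cannot be assigned to one gene with certainty. Btg2 read 199.6, 149.6 and 102 CPM in DOX hearts, against 38.3, 32.9 and 47.0 CPM in V hearts. Btg2, an antiproliferative partner of the deadenylase complex, rose by 1.93 ± 0.35 (edgeR adjusted p = 0.00384) with no overlap. Plk2 read 39.7, 44.5 and 44.2 CPM in DOX hearts, against 18.5, 17.2 and 18.1 CPM in V hearts. Plk3 read 6.02, 6.49 and 6.33 CPM in DOX hearts, against 2.12, 2.99 and 2.20 CPM in V hearts. These stress-responsive polo-like kinases rose by 1.25 ± 0.25 (edgeR adjusted p = 0.00555) and 1.36 ± 0.18 (edgeR adjusted p = 0.00211), and neither gene's groups overlapped.

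The other 3 arrest genes did not pass at 16 h. Ccng1 read 1133, 1218 and 1238 CPM in DOX hearts, against 972, 951 and 988 CPM in V hearts. Ccng1 encodes cyclin G1, which brings a phosphatase to Mdm2, and its DOX libraries lay above V by a small step (0.30 ± 0.12, edgeR adjusted p = 0.0654). Gadd45a read 7.66, 10.4 and 7.97 CPM in DOX hearts, against 6.65, 7.25 and 6.60 CPM in V hearts. Fbxw7 read 46.9, 54.0 and 55.0 CPM in DOX hearts, against 37.3, 40.4 and 41.4 CPM in V hearts. Gadd45a, a stress sensor that binds p21 and PCNA, stood at 0.34 ± 0.17 (edgeR adjusted p = 0.132), and Fbxw7, a ubiquitin ligase subunit that targets cyclin E and Myc, at 0.39 ± 0.15 (edgeR adjusted p = 0.0632). The DOX and V libraries of these 3 genes did not overlap, which is not a call. Ccng1 passed, at 0.30, when the fit held only DOX and V or left out DOXH replicate 2 or 3, and Fbxw7 passed, at 0.39, with only DOX and V or without H replicate 1.

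The sequence that p53 binds can be looked for in the promoters of these genes. In RefSeq (GRCm38.p6), 30 members had 39 windows of 300 bases, from 250 before to 50 after an annotated start. The p53 half-site consensus, which reads the same on both strands, was in 33.3% of these windows and in 8.36% of the 32851 windows of all genes. A full site, made of half-sites with at most 13 bases between them and at most 2 mismatches in all, none of them at the core C and G of a half-site, was in 12.8% of the members' windows and 4.09% of all windows. Without a mismatch it was in 1 window of the members, that of a Cdkn1a start, and in 0.0731% of all windows. The members with a full site, exact or not, were Ccng1, Cdkn1a, Gadd45a, Gtse1 and Sesn1. Of these, Cdkn1a alone was called higher in DOX against V at 16 h, and Gtse1 was not measured. The windows of Cdkn1a (chr17:29090729-29091028, plus strand, site from base -73) and Ccng1 (chr11:40755237-40755536, minus strand, 1 mismatch, site from base -195) are printed in the direction of transcription because they belong to arrest genes that moved in opposite directions at 72 h. Capitals mark the half-sites of the best match in each window, that with the fewest mismatches, and other matches are not marked. The half-sites marked for Cdkn1a are 12 bases apart. Its capital GAACATGTCT is followed without a gap by tgacatgttc, a pair that is also within the mismatches allowed, so the marked stretch is not the only candidate. A match is a description of the letters and does not show binding, and the second Cdkn1a window (chr17:29093519-29093818) held none.
Cdkn1a: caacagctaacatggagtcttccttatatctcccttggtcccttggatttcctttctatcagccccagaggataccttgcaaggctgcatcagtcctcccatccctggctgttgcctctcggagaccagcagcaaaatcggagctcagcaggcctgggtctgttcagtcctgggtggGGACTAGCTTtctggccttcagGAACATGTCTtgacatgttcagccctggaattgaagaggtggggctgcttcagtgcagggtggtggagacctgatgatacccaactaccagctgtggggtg
Ccng1: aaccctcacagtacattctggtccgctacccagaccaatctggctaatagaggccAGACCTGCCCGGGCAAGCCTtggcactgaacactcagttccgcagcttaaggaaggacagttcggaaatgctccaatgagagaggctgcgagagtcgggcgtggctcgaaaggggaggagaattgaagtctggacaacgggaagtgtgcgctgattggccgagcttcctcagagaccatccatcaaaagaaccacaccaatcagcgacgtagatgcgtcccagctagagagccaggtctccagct

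All 3 receptors of the tumour necrosis factor family rose at 16 h, and the ephrin receptor gene Epha2 did not pass (-0.05 ± 0.18, edgeR adjusted p = 0.866). Eda2r read 61.8, 95.9 and 78.2 CPM in DOX hearts, against 3.57, 2.81 and 2.30 CPM in V hearts. Eda2r encodes a receptor for ectodysplasin A2 (chrX:97333840-97377216, minus strand), and its DOX libraries were 27.0-fold higher than V on average, the largest fold among the 35 members (4.75 ± 0.85, edgeR adjusted p = 0.00425). Tnfrsf10b read 20.5, 18.9 and 14.0 CPM in DOX hearts, against 2.80, 2.36 and 3.04 CPM in V hearts. Fas read 43.4, 29.5 and 28.1 CPM in DOX hearts, against 12.5, 11.3 and 15.5 CPM in V hearts. Tnfrsf10b, the receptor for the death ligand TRAIL, rose by 2.70 ± 0.50 (edgeR adjusted p = 0.00431), and Fas, the receptor for Fas ligand, rose by 1.36 ± 0.34 (edgeR adjusted p = 0.0131). DOX and V libraries did not overlap for any of the 3.

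Of the other cell death and survival genes, 5 of 7 rose. Phlda3 read 32.5, 39.4 and 42.8 CPM in DOX hearts, against 4.24, 6.26 and 4.19 CPM in V hearts. Phlda3 encodes a pleckstrin-domain repressor of Akt and rose by 2.96 ± 0.58 (edgeR adjusted p = 0.0053). Apaf1 read 22.5, 20.9 and 21.8 CPM in DOX hearts, against 7.62, 8.07 and 7.96 CPM in V hearts. Ei24 read 157, 164 and 155 CPM in DOX hearts, against 50.6, 55.9 and 57.7 CPM in V hearts. Apaf1, the scaffold of the apoptosome, rose by 1.46 ± 0.26 (edgeR adjusted p = 0.00354), and Ei24, a protein of the endoplasmic reticulum linked to autophagy, rose by 1.54 ± 0.27 (edgeR adjusted p = 0.00371). Aen read 109, 122 and 122 CPM in DOX hearts, against 30.2, 31.4 and 28.8 CPM in V hearts. Aen, an apoptosis-enhancing nuclease, rose by 1.97 ± 0.42 (edgeR adjusted p = 0.00695), and Zmat3, an RNA-binding zinc finger protein, rose by 1.40 ± 0.28 (edgeR adjusted p = 0.00555). In all 5 the groups were apart. Perp, a membrane protein of desmosomes and cell death (0.16 ± 0.09, adjusted p = 0.188), and Dram1, a lysosomal autophagy protein (0.45 ± 0.22, adjusted p = 0.123), did not pass.

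DNA repair genes rose in 4 of 5 cases. Polk read 24.8, 23.8 and 25.5 CPM in DOX hearts, against 5.21, 5.26 and 2.93 CPM in V hearts. Polk, a polymerase that copies past damaged bases, rose by 2.46 ± 0.48 (edgeR adjusted p = 0.00518). Xpc read 22.5, 23.7 and 18.0 CPM in DOX hearts, against 13.1, 13.1 and 13.2 CPM in V hearts. Rrm2b read 61.2, 61.4 and 59.5 CPM in DOX hearts, against 41.9, 41.9 and 43.3 CPM in V hearts. Xpc, which recognises lesions for nucleotide excision repair, rose by 0.70 ± 0.16 (edgeR adjusted p = 0.00863), and Rrm2b, the p53-inducible subunit of ribonucleotide reductase, rose by 0.52 ± 0.14 (edgeR adjusted p = 0.0148). Ercc5 read 29.6, 27.5 and 28.8 CPM in DOX hearts, against 19.3, 14.5 and 18.0 CPM in V hearts. Ercc5, the endonuclease that cuts on one side of a lesion, rose by 0.73 ± 0.22 (edgeR adjusted p = 0.0248), and the groups of all 4 genes were apart. The call on Rrm2b was lost without V replicate 1 (0.51) and that on Ercc5 without DOX replicate 1 or 3 or V replicate 2 or 3 (0.62 to 0.76). Ddb2, which recognises lesions of ultraviolet light, did not pass (-0.09 ± 0.22, adjusted p = 0.775).

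The metabolic genes divided, with 3 of 7 past the threshold. Sesn2 read 20.3, 18.9 and 17.5 CPM in DOX hearts, against 3.28, 1.36 and 3.04 CPM in V hearts. Sesn2 encodes a sestrin that restrains the growth kinase complex mTORC1, and it rose by 2.89 ± 0.54 (edgeR adjusted p = 0.00432). Slc19a2 read 31.5, 35.1 and 26.7 CPM in DOX hearts, against 8.77, 7.98 and 7.01 CPM in V hearts. Abhd4 read 70.6, 64.2 and 55.9 CPM in DOX hearts, against 34.4, 28.3 and 30.7 CPM in V hearts. Slc19a2, a thiamine transporter, rose by 1.97 ± 0.46 (edgeR adjusted p = 0.0099), and Abhd4, a lipase of N-acyl phospholipids, rose by 1.03 ± 0.16 (edgeR adjusted p = 0.00251). DOX and V did not overlap for these 3. The other sestrin, Sesn1, lay on the opposite side of 0. Sesn1 read 123, 101 and 84.5 CPM in DOX hearts, against 134, 122 and 170.2 CPM in V hearts. Its groups overlapped and it missed the threshold (-0.47 ± 0.17, edgeR adjusted p = 0.0538), which it passed under 6 alternatives, at -0.61 to -0.47: DESeq2, a minimum mean of 5 CPM, and without DOX replicate 1, DOXH replicate 1, DOXH replicate 3 or V replicate 2. Tigar, a phosphatase that lowers glycolytic flux (-0.09 ± 0.15), Fdxr, the mitochondrial ferredoxin reductase (-0.10 ± 0.15), and Pltp, a phospholipid transfer protein of plasma (-0.29 ± 0.22), did not pass, at adjusted p between 0.337 and 0.662.

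**Figure D2:**
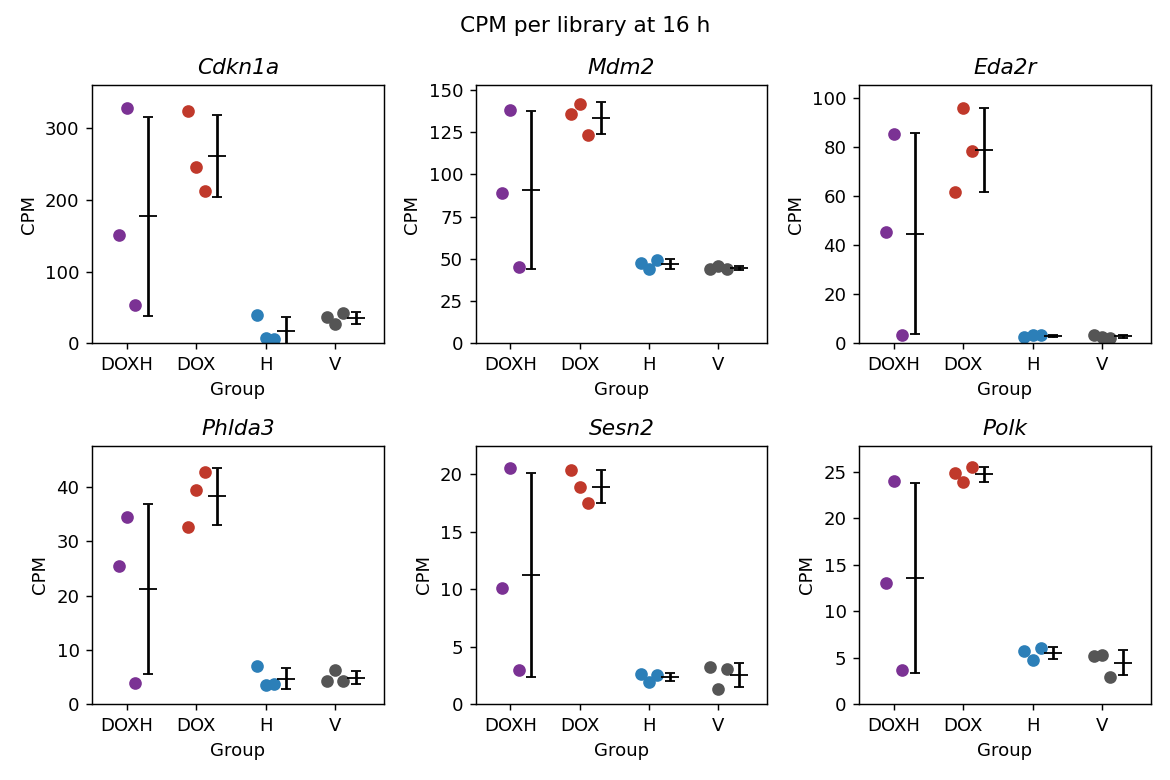
CPM in each library (points) at 16 h for 6 members, with the mean and SD of 3 libraries beside them, for DOXH, DOX, H and V. Each panel has its own axis from 0. The DOX points lie above all H and V points in every panel, and 1 DOXH point in each panel lies near V.

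Markers of several cell types also changed, in both directions. All 10 cardiomyocyte markers were in both tables, and all 10 fell at 16 h, with a summed level of 28545 to 30583 CPM in DOX and 51582 to 58994 CPM in V. Neutrophil markers, 7 of 8 in the table, summed to 147 to 273 CPM in DOX and 24.8 to 77.8 CPM in V, and 1 of 7 rose. Macrophage and monocyte markers rose in 2 and fell in 1 of 9 cases, 2 of 8 endothelial, 2 of 8 mural cell and 2 of 5 erythroid markers fell, and 0 of 8 fibroblast markers passed. The 1 epicardial marker in the table read 13.8 to 14.2 CPM in DOX and 7.98 to 9.64 CPM in V, the 1 Schwann cell marker 4.56 to 5.67 CPM in DOX and 3.87 to 4.71 CPM in V, and T cell and B cell markers were in neither table. Their part in the results on the members was not tested.

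At 72 h, 21 members were measured, and 9 rose and 4 fell in DOX against V, or 42.9% and 19.0%. Of all genes tested at that time 26.5% rose and 27.2% fell, and the medians were 0.21 over the members and 0.01 over all genes. The rises were in Cdkn1a, Trp53inp1, Btg2, Fas, Phlda3, Mdm4, Perp, Xpc and Abhd4, and the falls in Ccng1, Fbxw7, Gadd45a and Pltp. Cardiomyocyte markers fell in 9 of 10 cases (17561 to 22089 CPM in DOX, 43579 to 50761 CPM in V), the 4 neutrophil markers in the table rose (48.0 to 228 CPM in DOX, 1.98 to 3.38 CPM in V), and all 5 erythroid markers fell (20.6 to 33.0 CPM in DOX, 1436 to 3523 CPM in V). Among 8 markers each, 5 rose and 1 fell for macrophages and monocytes, and 5 rose and 1 fell for endothelial cells; 2 of 7 fibroblast markers rose and 1 fell, and 2 of 8 mural cell markers fell. The 2 adipocyte markers in the table summed to 0.299 to 1.64 CPM in DOX and 0.0583 to 7.31 CPM in V, with Adipoq at 0 in V replicate 1. Their part in these results was not tested.

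Arrest genes went both ways at 72 h. Cdkn1a read 91.1, 87.4 and 98.0 CPM in DOX hearts, against 5.72, 6.13 and 10.4 CPM in V hearts. The groups were far apart, at 12.4-fold (3.63 ± 0.20, edgeR adjusted p = 2.91e-05). Btg2 read 52.9, 55.0 and 72.6 CPM in DOX hearts, against 22.0, 23.7 and 18.1 CPM in V hearts. It rose by 1.50 ± 0.15 (edgeR adjusted p = 9.64e-05). Ccng1 read 371, 386 and 409 CPM in DOX hearts, against 1042, 1048 and 1094 CPM in V hearts. Every DOX library was below every V library (chr11:40748552-40755311, minus strand), with a change of -1.45 ± 0.08 and edgeR adjusted p = 1.56e-05. Fbxw7 read 25.7, 30.4 and 25.1 CPM in DOX hearts, against 44.9, 40.9 and 54.8 CPM in V hearts. Gadd45a read 7.07, 6.24 and 10.3 CPM in DOX hearts, against 12.8, 11.9 and 11.4 CPM in V hearts. Plk2 read 23.1, 23.1 and 21.0 CPM in DOX hearts, against 22.0, 21.2 and 14.95 CPM in V hearts. Fbxw7 fell (-0.79 ± 0.12, edgeR adjusted p = 0.000738) and Gadd45a fell (-0.62 ± 0.20, edgeR adjusted p = 0.0253), both without overlap. Plk2 overlapped and did not pass (0.21 ± 0.14, edgeR adjusted p = 0.224). The Gadd45a call was lost without DOX replicate 1 or 2 or V replicate 1 or 2, at -0.63 to -0.48.

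In the feedback group at 72 h, Mdm4 read 87.7, 86.2 and 72.5 CPM in DOX hearts, against 50.2, 51.7 and 52.8 CPM in V hearts. Trp53inp1 read 96.0, 59.7 and 37.7 CPM in DOX hearts, against 19.6, 17.9 and 18.7 CPM in V hearts. Mdm2 read 44.5, 44.6 and 45.7 CPM in DOX hearts, against 50.8, 43.2 and 46.7 CPM in V hearts. Mdm4 (0.67 ± 0.09, edgeR adjusted p = 0.000303) and Trp53inp1 (1.78 ± 0.35, edgeR adjusted p = 0.00817) rose with no overlap, and the spread among the DOX libraries was wide for Trp53inp1. Mdm2 overlapped and stood at -0.06 ± 0.08 (edgeR adjusted p = 0.527). For the 1 receptor in the table, Fas read 37.0, 29.5 and 33.9 CPM in DOX hearts, against 10.1, 10.4 and 15.4 CPM in V hearts. It rose by 1.48 ± 0.17 (edgeR adjusted p = 0.000195), again with the groups apart.

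**Figure D3:**
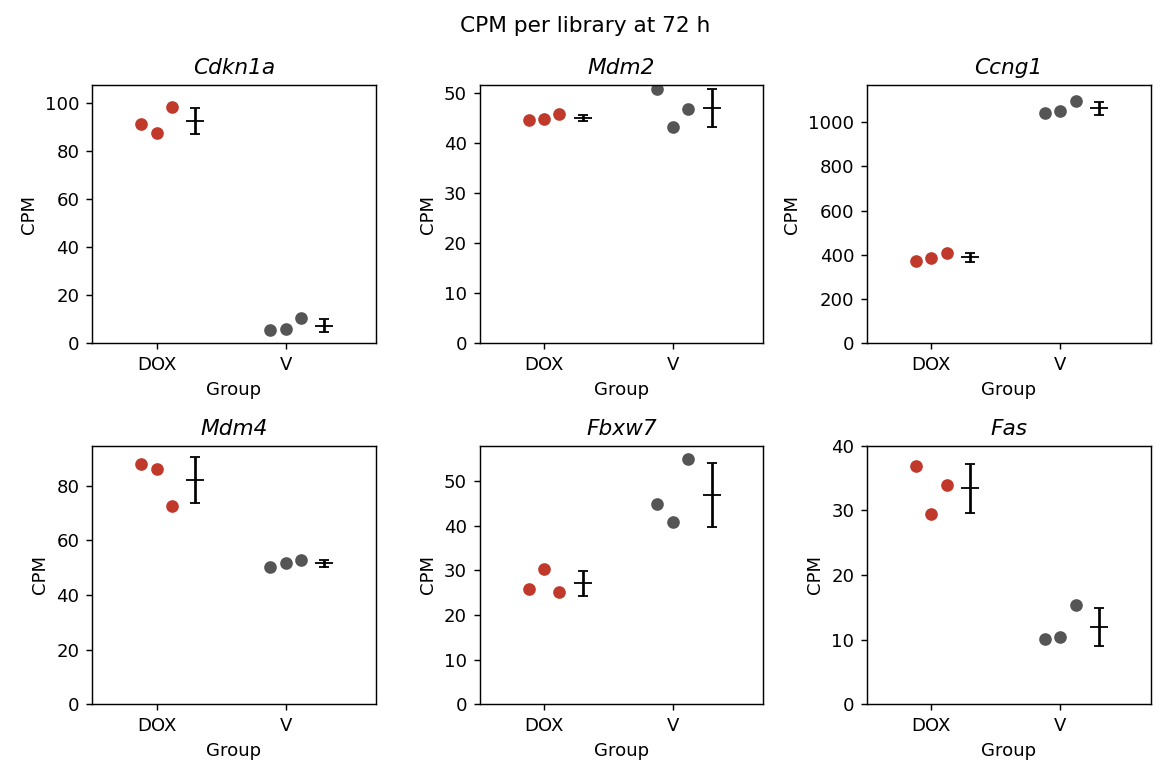
CPM in each library (points) at 72 h for 6 members, with the mean and SD of 3 libraries beside them, for DOX and V. Each panel has its own axis from 0. DOX lies above V for Cdkn1a, Mdm4 and Fas, below it for Ccng1 and Fbxw7, and among the V points for Mdm2.

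Among the other cell death genes at 72 h, Phlda3 read 12.8, 15.3 and 14.7 CPM in DOX hearts, against 4.26, 6.89 and 7.13 CPM in V hearts. Perp read 121, 115 and 119 CPM in DOX hearts, against 90.7, 93.6 and 90.9 CPM in V hearts. Phlda3 rose by 1.23 ± 0.20 (edgeR adjusted p = 0.000922) and Perp by 0.36 ± 0.07 (edgeR adjusted p = 0.00262), with DOX above V in all libraries. Aen read 27.6, 28.7 and 36.5 CPM in DOX hearts, against 28.1, 25.1 and 25.7 CPM in V hearts. Ei24 read 58.7, 65.4 and 64.4 CPM in DOX hearts, against 59.05, 59.7 and 59.7 CPM in V hearts. Their groups overlapped, and neither passed (0.23 ± 0.12, adjusted p = 0.123 for Aen and 0.08 ± 0.07, adjusted p = 0.381 for Ei24 in edgeR).

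Of the repair genes 1 of 3 passed at 72 h, and of the metabolic genes 2 of 4. Xpc read 18.2, 15.7 and 14.3 CPM in DOX hearts, against 12.9, 13.1 and 12.2 CPM in V hearts. It rose by 0.33 ± 0.11 (edgeR adjusted p = 0.0314), a call lost in DESeq2 and without DOX replicate 1 or any 1 of the 3 V libraries (0.24 to 0.35). Ercc5 read 18.3, 18.1 and 18.0 CPM in DOX hearts, against 16.2, 15.6 and 15.9 CPM in V hearts. Rrm2b read 36.7, 36.2 and 41.3 CPM in DOX hearts, against 41.3, 39.3 and 42.1 CPM in V hearts. Ercc5 did not overlap but did not pass (0.19 ± 0.08, adjusted p = 0.0778), and Rrm2b overlapped (-0.10 ± 0.08, adjusted p = 0.295, both in edgeR). Abhd4 read 43.7, 35.4 and 35.2 CPM in DOX hearts, against 31.7, 29.7 and 28.3 CPM in V hearts. Pltp read 9.67, 11.8 and 11.98 CPM in DOX hearts, against 13.1, 17.0 and 20.8 CPM in V hearts. Sesn1 read 115, 121 and 75.5 CPM in DOX hearts, against 141, 159 and 118 CPM in V hearts. Abhd4 rose by 0.35 ± 0.10 (edgeR adjusted p = 0.0187) and Pltp fell (-0.61 ± 0.17, edgeR adjusted p = 0.0158), and neither gene's groups overlapped. Abhd4 was not called without DOX replicate 1, V replicate 2 or V replicate 3 (0.24 to 0.34), and Pltp was not called without DOX replicate 1 or V replicate 3 (-0.51 to -0.43). Sesn1 overlapped and missed the threshold (-0.42 ± 0.19, edgeR adjusted p = 0.0948), which it passed in DESeq2 (-0.42). Tigar stood at -0.07 ± 0.08 (adjusted p = 0.454).

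The change with doxorubicin at 72 h was set against that at 16 h for the 21 members in both tables. In this test of the difference, 1 member was higher at 72 h and 9 were lower, or 4.76% and 42.9%, and of 7422 gene identifiers tested 12.4% were higher and 14.6% lower. The median difference was -0.64 over the members and 0.01 over all. By the calls at each time, 7 members rose at both times, 6 rose at 16 h and did not pass at 72 h, 2 rose at 72 h alone, 4 fell at 72 h alone, and 2 passed at neither. These calls are not themselves tests of a difference. The same patterns were not counted over all genes, so they are not shown to be particular to the members.

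Of the members that rose at 16 h, the differences past the threshold were those of Mdm2 (-1.66 ± 0.35, edgeR adjusted p = 0.0037), Aen (-1.76 ± 0.51, adjusted p = 0.0202), Ei24 (-1.48 ± 0.33, adjusted p = 0.00505), Plk2 (-1.06 ± 0.33, adjusted p = 0.026), Abhd4 (-0.70 ± 0.20, adjusted p = 0.0185) and Rrm2b (-0.64 ± 0.17, adjusted p = 0.0128). Their changes were lower at 72 h than at 16 h. Of the 4 falls at 72 h, 3 also differed from the 16 h change: Ccng1 (-1.77 ± 0.15, edgeR adjusted p = 4.64e-06), Fbxw7 (-1.20 ± 0.21, adjusted p = 0.00112) and Gadd45a (-0.98 ± 0.28, adjusted p = 0.0168). Mdm4 was the 1 member whose change was higher at 72 h (0.54 ± 0.16, adjusted p = 0.0218). The differences of Cdkn1a (0.73 ± 0.89), Fas (0.10 ± 0.43), Btg2 (-0.45 ± 0.44), Trp53inp1 (-0.79 ± 0.78) and Phlda3 (-1.75 ± 0.71) did not pass, at adjusted p of 0.0797 to 0.89, and the SE of these estimates was 0.43 to 0.89. The spread behind each SE includes that of the H and DOXH libraries at 16 h. Leaving out 1 library ended the calls on Plk2 (DOX replicate 2 or V replicate 2 at 16 h, V replicate 1 or 2 at 72 h), Abhd4 (V replicate 2 at 16 h, V replicate 1 at 72 h), Mdm4 (V replicate 3 at 16 h, DOX replicate 1 at 72 h) and Gadd45a (DOX replicate 2 at 16 h), at -1.03 to -0.94, -0.64 to -0.63, 0.49 to 0.51 and -0.83 in that order. Phlda3 passed, at -1.75, without DOXH replicate 3 or with only DOX and V in the fit, and Ercc5, at -0.56, with only DOX and V or without DOXH replicate 2 or 3.

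**Figure D4:**
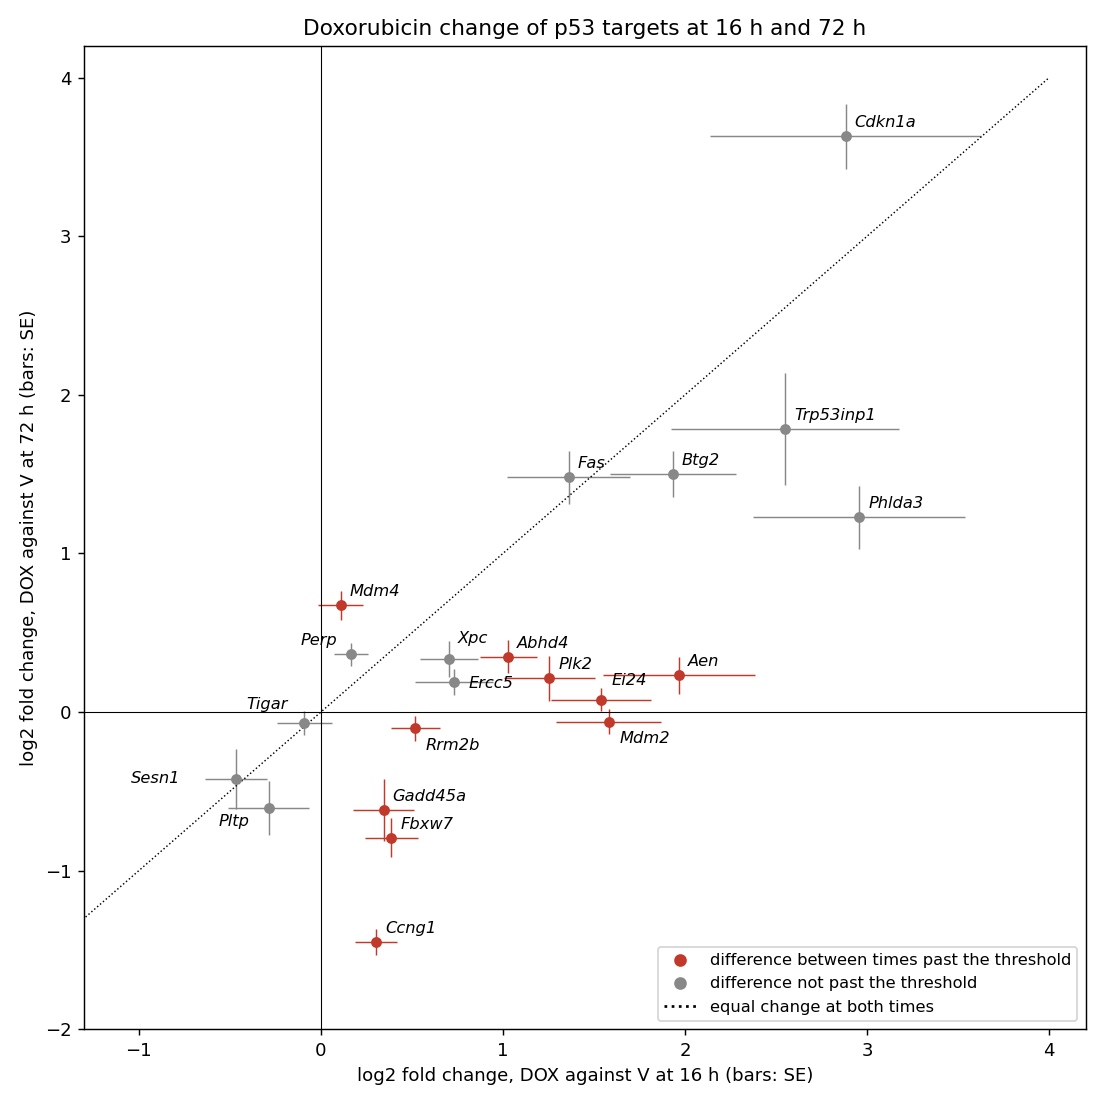
Log2 fold change of DOX against V at 16 h (x axis) and 72 h (y axis) for the 21 members in both tables, with bars for the SE and a dotted line for equal change. Red marks the 10 members whose difference between the times passed the threshold, among them Ccng1 far below the line and Mdm4 above it.

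Doxorubicin given with hesperitin was compared with hesperitin alone, a contrast that shares no library with DOX against V. With all libraries, 0 of 35 members passed in edgeR, 20 were higher and 0 lower at an unadjusted p under 0.05, and DESeq2 called 14 higher. Of all genes, 0.115% were called higher and 0.0385% lower in edgeR, 12.7% were higher and 11.9% lower at an unadjusted p under 0.05, and DESeq2 called 3.71% higher and 3.19% lower. Without DOXH replicate 3, 21 members rose and 0 fell, where 10.4% of all genes rose and 11.7% fell, and 20 of those 21 are among the 21 that rose in DOX against V. The other is Ccng1 (0.43 ± 0.08), and Xpc, which rose in DOX against V, missed the threshold here (0.38 ± 0.13). That library was singled out by the low values of these same members, so the count without it follows in part from the choice and is a description, not separate evidence. Without DOXH replicate 1 or DOXH replicate 2 the count was 0, with medians over the members of 0.50 and 0.36 in that order. The share of all genes called in these settings is not given here.

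By library, DOXH replicate 3 was apart from the other DOXH libraries. Eda2r read 45.3, 85.2 and 3.63 CPM in DOXH hearts, against 2.70, 3.45 and 3.37 CPM in H hearts. Mdm2 read 89.0, 138 and 44.9 CPM in DOXH hearts, against 47.6, 43.7 and 49.4 CPM in H hearts. Cdkn1a read 151, 327 and 53.2 CPM in DOXH hearts, against 39.8, 7.38 and 6.75 CPM in H hearts. In each of the 3 genes DOXH replicate 3 was the lowest of its group, and for Mdm2 it lay among the H libraries. With all libraries the changes were 3.81 ± 0.79 for Eda2r (edgeR adjusted p = 0.0596), 0.95 ± 0.28 for Mdm2 (adjusted p = 0.097) and 3.30 ± 0.76 for Cdkn1a (adjusted p = 0.0653), and without DOXH replicate 3 they were 4.36 ± 0.29, 1.27 ± 0.14 and 3.73 ± 0.74 in the same order.

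Phlda3 read 25.4, 34.4 and 3.94 CPM in DOXH hearts, against 6.95, 3.45 and 3.69 CPM in H hearts. Sesn2 read 10.1, 20.6 and 3.01 CPM in DOXH hearts, against 2.59, 1.94 and 2.57 CPM in H hearts. Aen read 106, 128 and 25.8 CPM in DOXH hearts, against 39.5, 29.2 and 32.6 CPM in H hearts. DOXH replicates 1 and 2 were above all H libraries in the 3 genes, and replicate 3 was within or below the H range for Phlda3 and Aen. Their changes without it were 2.66 ± 0.27, 2.68 ± 0.32 and 1.79 ± 0.12. Polk read 13.01, 24.0 and 3.63 CPM in DOXH hearts, against 5.74, 4.78 and 5.996 CPM in H hearts. Trp53inp1 read 135, 378 and 47.8 CPM in DOXH hearts, against 39.9, 21.4 and 22.3 CPM in H hearts. Polk in DOXH replicate 3 was below every H library, while Trp53inp1 in DOXH replicate 2 was above every DOX library as well. In DOXH replicate 3 the cardiomyocyte markers summed to 54780 CPM, against 34732 and 37409 CPM in the other DOXH libraries, and the neutrophil markers to 61.3 CPM, against 156 and 159 CPM. Their part in these results was not tested.

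**Figure D5:**
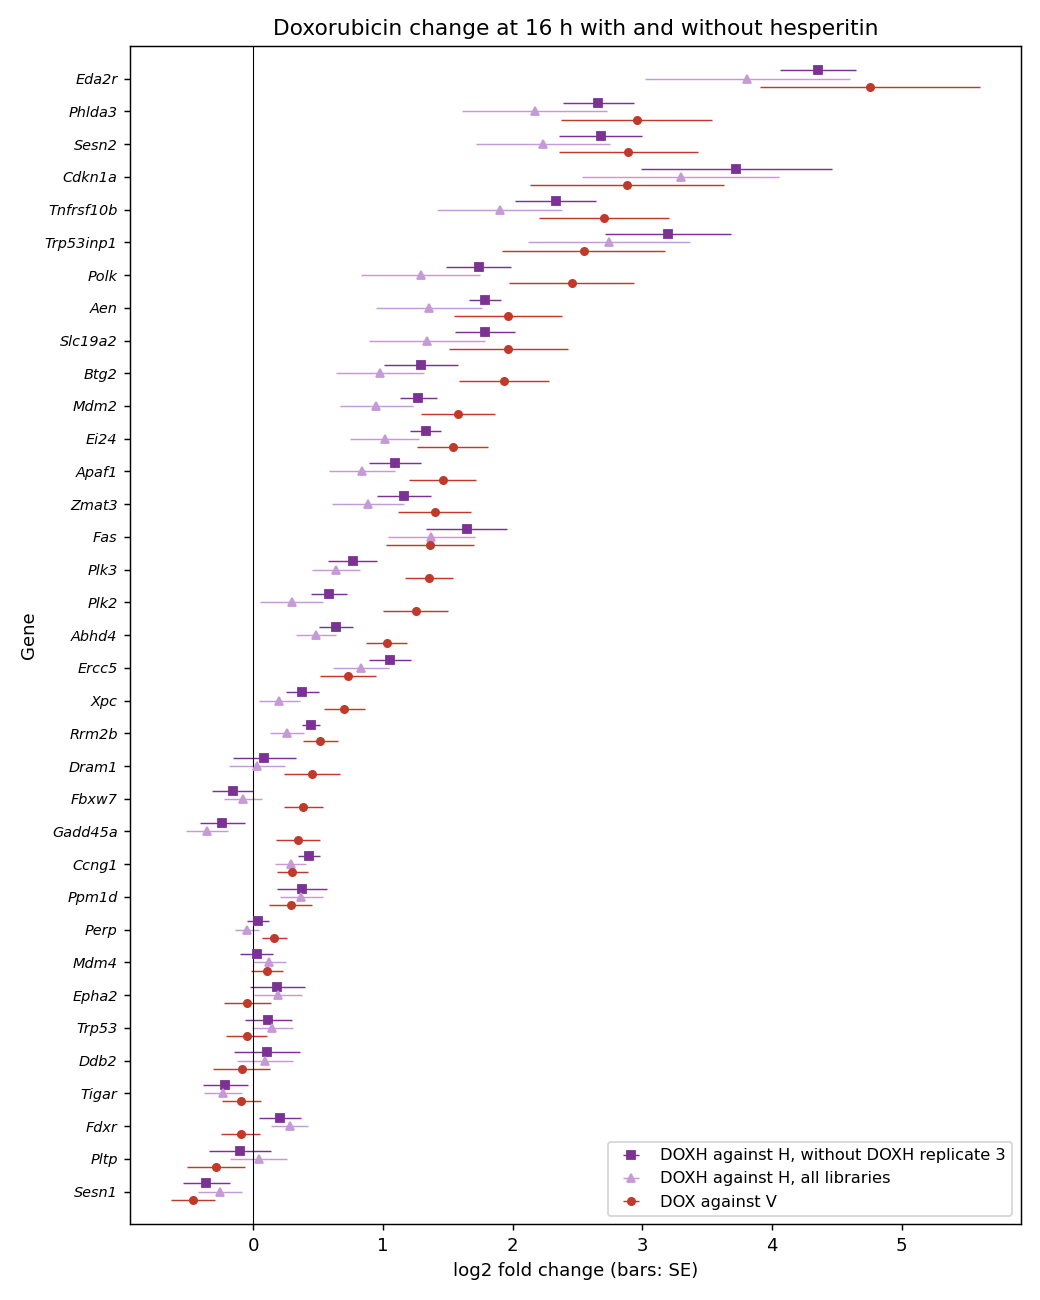
Log2 fold change with SE for the 35 members at 16 h in DOXH against H without DOXH replicate 3 (squares), DOXH against H with all libraries (triangles) and DOX against V (circles), ordered by DOX against V. For each of the 21 members that rose in DOX against V, the triangle lies closer to 0 than the square.

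DOXH against V, which shares its V libraries with DOX against V, called 0 of 35 members in edgeR (0% of all genes in either direction), 21 higher and 0 lower at an unadjusted p under 0.05, and 8 in DESeq2. Of all genes, 8.93% were higher and 7.9% lower at an unadjusted p under 0.05, and DESeq2 called 0.818% higher and 0.443% lower. Without DOXH replicate 3 it called 22 members higher and 0 lower, where 7.36% of all genes were called higher and 8.75% lower. This count rests on the same choice of library, and without DOXH replicate 1 or 2 it was 0, with medians over the members of 0.66 and 0.34. The share of all genes called without replicate 1 or 2 is not given here, so that 0 is not a result about the members. DOXH against DOX called 0 members (0% of all genes), 0 higher and 5 lower at an unadjusted p under 0.05, and 0 in DESeq2. Of all genes, 11.1% were higher and 7.72% lower at an unadjusted p under 0.05, DESeq2 called 2.95% higher and 0.693% lower, and the median was -0.38 over the members and -0.01 over all genes. The smallest adjusted p was that of Plk3 (-0.71 ± 0.17, edgeR adjusted p = 0.131), and the next that of Apaf1 (-0.72 ± 0.25, adjusted p = 0.18). Plk3 read 4.50, 3.86 and 3.11 CPM in DOXH hearts, against 6.02, 6.49 and 6.33 CPM in DOX hearts. Apaf1 read 11.6, 20.0 and 7.99 CPM in DOXH hearts, against 22.5, 20.9 and 21.8 CPM in DOX hearts. The groups did not overlap for either gene.

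The result of DOXH against DOX turned on which DOXH library was left out. Without DOXH replicate 3 it called 0 members (0% of all genes in either direction), with a median of -0.18 over the members. Without DOXH replicate 2, DOXH against DOX called 15 members lower, where 9.28% of all genes were called higher and 5.68% lower. The DOXH libraries left in that fit were replicates 1 and 3. Replicate 3 had a median log2 ratio to V of 0.05 over the 21 members that rose in DOX. The count leans on that library, and an effect of hesperitin cannot be told apart from it. With replicate 2 left out the falls included Polk (-1.55 ± 0.39), Tnfrsf10b (-1.61 ± 0.32), Sesn2 (-1.51 ± 0.40) and Mdm2 (-0.99 ± 0.22). The test of whether hesperitin altered the doxorubicin change (interaction) called 0 members (0% of all genes) in edgeR and 0 in DESeq2, with 0 higher and 6 lower at an unadjusted p under 0.05, where 6.85% of all genes were higher and 4.96% lower. Its median was -0.47 over the members and -0.01 over all genes. The lowest adjusted p was that of Gadd45a (-0.70 ± 0.24, edgeR adjusted p = 0.363), and for Cdkn1a and Mdm2 the estimates were 0.41 ± 1.00 and -0.63 ± 0.40. Without DOXH replicate 3 the interaction called 0 members (0% of all genes in either direction). Without DOXH replicate 2 the interaction called 1 member, Apaf1 (-1.05 ± 0.23), where 1.69% of all genes were called higher and 0.751% lower. That call leans on DOXH replicate 3 as well.

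Hesperitin alone against vehicle called 0 of 35 members in edgeR (0% of all genes) and 0 in DESeq2, with 2 higher and 1 lower at an unadjusted p under 0.05, where 2.79% of all genes were higher and 3.6% lower. DESeq2 called 0.0289% of all genes higher and 0.0866% lower. The 3 members were Gadd45a (0.45 ± 0.16), Fbxw7 (0.37 ± 0.15) and Trp53 (-0.39 ± 0.15), and the median was 0.01 over the members and 0.01 over all genes. Cdkn1a read 39.8, 7.38 and 6.75 CPM in H hearts, against 36.5, 26.9 and 42.5 CPM in V hearts. H replicate 1 was within the V range and the other H libraries were below every V library, so the groups overlapped (-0.97 ± 0.73, edgeR adjusted p = 0.883). In H replicate 1 the neutrophil markers summed to 166 CPM, against 11.7 and 11.9 CPM in the other H libraries, and their part in this was not tested. Without H replicate 1, Fbxw7 was the 1 member called in H against V (0.55 ± 0.10), where 0.0577% of all genes were called higher, and Cdkn1a the 1 member called in DOXH against H (4.65 ± 0.69), where 1.29% were.

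The lists that follow are to be read against all genes, of which 15.6% rose and 16.6% fell at 16 h and 26.5% rose and 27.2% fell at 72 h. These lists were chosen with earlier results of these data known, so their counts are a description and not separate evidence. Of 50 further p53 targets outside the list, 35 were measured at 16 h, and 13 rose and 2 fell in DOX against V (37.1% and 5.71%, median 0.35). They included Tap1, a peptide transporter for antigen presentation (1.94 ± 0.30), Rap2b, a small GTPase (1.83 ± 0.33), and Arap2, a GTPase-activating protein (1.11 ± 0.16). At 72 h 13 of 26 rose and 6 fell (23.1% fell), among them Vcan, the matrix proteoglycan versican (1.67 ± 0.13), Klf4, a transcription factor (1.04 ± 0.09), and Lpin1, a phosphatidate phosphatase (-1.27 ± 0.11). Of 28 proteins that modify p53, 25 were measured at 16 h, where 5 rose and 3 fell, with a median of 0.10 against 0.02 over all genes. They include the chromatin reader Ing1 (0.71 ± 0.11), Brd7, a bromodomain protein (-0.57 ± 0.10), and Ppp1r13l, an inhibitor of p53 (-0.81 ± 0.20). At 72 h 9 of 23 rose and 6 fell (39.1% and 26.1%), with the kinase Hipk2 at -0.96 ± 0.12, the ubiquitin ligase Cop1 at -0.51 ± 0.08 and Rpl11, a ribosomal protein that binds Mdm2, at 0.68 ± 0.11.

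Genes that sense DNA damage act upstream of p53. At 16 h 4 of 23 rose and 3 fell (17.4% and 13.04%), shares near those of all genes (15.6% and 16.6%), among them Rad50 of the break-binding complex (0.95 ± 0.15), the kinase Atm (0.59 ± 0.13) and the Ku subunit Xrcc6 (-0.53 ± 0.14). At 72 h 1 of 12 rose and 3 fell, with Parp1, which marks strand breaks, at -0.79 ± 0.09, the other Ku subunit Xrcc5 at 0.30 ± 0.09 and the clamp protein Hus1 at -0.54 ± 0.16. Of 40 cell cycle genes that p53 represses through the DREAM complex, 7 were in the table of 16 h, and 2 rose and 2 fell. The kinetochore genes Cenpa (-1.63 ± 0.33) and Cenpf (-2.19 ± 0.61) fell and the helicase subunit gene Mcm4 rose (0.94 ± 0.24). At 72 h only Cenpf (-3.01 ± 0.21) and Cenpa (-0.78 ± 0.16) were in the table, and both fell.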

How the data were processed

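Heart RNA of wild-type mice was poly(A)-selected and sequenced, per the labels' protocols. The authors deposited expected counts per gene, estimates of read numbers that need not be whole, in 1 table per time. Per the submitters' processing notes, RSEM, DESeq2 and GRCm38 (mm10) were used; the sources used here give no versions, annotation, strand setting or filter behind the 10393 and 7723 genes.

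At 72 h, 6 columns with a code that no label uses were left out, so H and DOXH at 72 h were not analysed here, and 1 DOX column whose number no label has entered as a replicate without a number. Counts were rounded and tested with edgeR 4.0.16 (R 4.3.3): TMM, filterByExpr, robust quasi-likelihood fit of group means, Benjamini-Hochberg adjustment over all genes (10393 at 16 h, 7703 at 72 h, 7422 for the difference). The fits had 12, 6 and 18 libraries. Each SE was taken as the size of the change over the root of its F statistic. The script was tested on simulated data. Depth was 9255651 to 20587578 counts per library, with 3 libraries per group.

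Values per library are given for up to 3 members per role with the smallest p at each time and for each difference between times past the threshold, and pathway lists name the 3 smallest p; other values were chosen after they were seen. The members and lists were chosen with earlier results of these data known. Alternatives were RLE factors, no filter, DESeq2 1.42.0, a minimum mean of 5 CPM, voom of limma 3.58.1, only the groups compared, a block for the replicate number and each library left out.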

Additional observations from a re-analysis of the deposited data

Results flagged for a closer look

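The change with doxorubicin against vehicle differed between 72 h and 16 h, by edgeR's test of the difference itself, for 10 of the 21 members in both tables. Each value is the log2 fold change at 72 h minus that at 16 h, and the changes at each time are given with it. For Mdm2 the difference was -1.66, from changes of -0.06 at 72 h and 1.58 at 16 h. For Mdm4 the difference was 0.54, from changes of 0.67 at 72 h and 0.11 at 16 h. For Ccng1 the difference was -1.77, from changes of -1.45 at 72 h and 0.30 at 16 h. For Plk2 the difference was -1.06, from changes of 0.21 at 72 h and 1.25 at 16 h. For Gadd45a the difference was -0.98, from changes of -0.62 at 72 h and 0.34 at 16 h. For Fbxw7 the difference was -1.20, from changes of -0.79 at 72 h and 0.39 at 16 h. For Aen the difference was -1.76, from changes of 0.23 at 72 h and 1.97 at 16 h. For Ei24 the difference was -1.48, from changes of 0.08 at 72 h and 1.54 at 16 h. For Rrm2b the difference was -0.64, from changes of -0.10 at 72 h and 0.52 at 16 h. For Abhd4 the difference was -0.70, from changes of 0.35 at 72 h and 1.03 at 16 h. The causes were not tested.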

How the results depend on the processing

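Counts of members called in DOX against V (21 at 16 h, 13 at 72 h) and in the difference (10) stayed within 1.5 times under every alternative, at 19 to 23, 9 to 14 and 7 to 12. DOXH against H moved from 0 to 14 and DOXH against V from 0 to 8 in DESeq2. With single libraries left out the counts were 0 to 21 in DOXH against H, 0 to 22 in DOXH against V, 0 to 15 in DOXH against DOX, 0 to 1 in H against V and 0 to 1 in the interaction. The share of all genes called moved too. In DOXH against H, 0.115% were higher with all libraries, 3.71% in DESeq2 and 10.4% without DOXH replicate 3. Shares are not given for every alternative, so these ranges describe the processing and are not a result about the members. The block for the replicate number gave 22, 14 and 7 for DOX against V at 16 h, at 72 h and the difference, and 0 elsewhere; it ended the calls on Plk2 (-1.18), Abhd4 (-0.69) and Aen (-1.92) in the difference and added Fbxw7 at 16 h (0.38) and Sesn1 at 72 h (-0.34). Pairing by number was not established: deviations of same-numbered libraries correlated at -0.415 to 0.250 at 16 h, and at 72 h at 0.197 and 0.245 in the only 2 pairs. Only uncalled values near 0 changed sign. With single libraries left out, the log2 fold change at 16 h ran over -0.18 to 0.067 for Trp53, -0.075 to 0.0086 for Epha2, -0.19 to 0.013 for Ddb2 and -0.20 to 0.067 for Tigar, and the difference between times over -0.029 to 0.33 for Fas, -0.12 to 0.21 for Sesn1 and -0.16 to 0.11 for Tigar; Tigar at 72 h was 0.010 with the block. The cause was not tested. DOXH is limited by the spread between its libraries. Genes at under 5 CPM, such as Eda2r and Sesn2 in V, have folds with a low base.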

Other observations

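Levels of the members in hearts given vehicle can be compared with each other only per length. In V hearts at 16 h, as CPM per kilobase of exon (mean ± SD, n = 3), Ccng1 was the highest at 276 ± 5.30, followed by Perp at 63.2 ± 3.35 and Sesn1 at 35.7 ± 6.30. The lowest were Eda2r at 0.491 ± 0.108, Tnfrsf10b at 0.501 ± 0.0632 and Sesn2 at 0.736 ± 0.301, and the order of these 3 is within their spread. Exon length is the union of exons in GENCODE on GRCm38.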
